A study of Mus musculus with 11 samples.

Results

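Enteroendocrine cells are the sparse hormone-secreting cells of the gut lining. Their genes were followed here through 10 members picked by gene symbol: the granins Chga and Chgb, the peptide hormone genes Insl5, Pyy, Gcg, Sct and Cck, the serotonin enzyme gene Tph1, and the lineage factors Neurod1 and Pax6. The 10 members were found among 54513 genes in the deposited count table, and all 10 passed the filter on low counts that left 19267 genes for testing. Messenger RNA was sequenced from colonic epithelial cells of mice, isolated on 40% Percoll, a density medium used to take out lymphocytes. The groups were double-knockout (DKO) mice after 7 days on 2% DSS (dextran sulphate sodium) and 2 further days to recover (n = 3 libraries), wild-type (WT) mice after the same course (n = 3), untreated baseline DKO mice (n = 3) and untreated baseline WT mice (n = 2). The DKO mice lack miR-181a1-b1 and miR-181a2-b2, and DSS is a polysaccharide that injures the colonic epithelium. The labels name neither a Cre nor a transgene, give neither strain, age nor sex, and call the libraries biological replicates without saying whether each came from 1 mouse. The p-values therefore measure the spread between these libraries.

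In the colon, L cells make the peptides of the Gcg gene (GLP-1 and GLP-2), peptide YY and insulin-like peptide 5, and enterochromaffin cells make serotonin with the enzyme encoded by Tph1. The hormones are stored with granins in dense-core granules and released when the cell senses nutrients, microbial products or irritants. New enteroendocrine cells arise in the crypt from progenitors that pass through Neurog3 and then Neurod1, with Pax6 acting later in the choice of hormone.

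The microRNAs of both deleted clusters share their seed (bases 2 to 8, in capitals), which pairs with the 3′ untranslated region (UTR) of a target. Their mature sequences, from RefSeq (GRCm38.p6), are shown because they are what the DKO mice lack. The first is encoded by Mir181a-1 on chromosome 1 and Mir181a-2 on chromosome 2, and the second by Mir181b-1 and Mir181b-2 at the same loci. The other two, from the Mir181c and Mir181d genes of chromosome 8, are outside the deletions that the labels name and carry the same seed.
miR-181a-5p: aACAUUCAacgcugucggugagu
miR-181b-5p: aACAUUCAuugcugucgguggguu
miR-181c-5p: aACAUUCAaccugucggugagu
miR-181d-5p: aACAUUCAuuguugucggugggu

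The complement of this seed (TGAATGT, in capitals) was found in the longest annotated 3′ UTR of Chga, beginning at base 150 of 335, and of Tph1, beginning at base 465 of 2785. Both stretches are shown with 11 bases on either side, 5′ to 3′ on the transcript, from GENCODE M21 on GRCm38. The other 8 members had neither this match, nor GAATGTA, nor the longer TGAATGTA in theirs, and such letters were present in 22.1% of 19830 genes whose 3′ UTR reached 100 bases. A match is a description of letters and not a measured site.
Chga: cagggcagcccTGAATGTcagcacagatt
Tph1: ggatgccacgaTGAATGTgtctgttacct

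On GRCm38 (GENCODE M21), the granin gene Chga lies at chr12:102554969-102565028 (plus strand) and Chgb at chr2:132781278-132795079 (plus strand). Of the peptide hormone genes, Insl5 lies at chr4:103017872-103026842 (minus strand), Pyy at chr11:102106676-102107832 (minus strand), Gcg at chr2:62474530-62483650 (minus strand), Sct at chr7:141278330-141279133 (minus strand) and Cck at chr9:121489824-121495694 (minus strand). Tph1 lies at chr7:46644641-46672537 (minus strand), Neurod1 at chr2:79452521-79456751 (minus strand) and Pax6 at chr2:105668900-105697364 (plus strand). The lengths used below for levels per kilobase are those of each gene's joined exons.

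Facts of the libraries that touch every later result were as follows. Totals were 41631951 to 52761900 counts. The epithelial marker list summed to 8827 to 9870 CPM (counts scaled to library size) in DSS DKO, 10234 to 11185 in DSS WT, 12128 to 13180 in baseline DKO and 10158 to 11345 in baseline WT, with all 9 markers among the genes tested, so the markers of the labelled cell type were present. Xist, the X-silencing RNA, stood at 633 to 716 CPM in DSS DKO and 783 to 906 in DSS WT, against 6.80 to 14.5 in baseline DKO and 6.75 to 7.34 in baseline WT. Ddx3y, a Y-linked gene, was at 0.162 to 0.204, 0.587 to 0.895, 42.6 to 52.4 and 52.0 to 54.9 CPM in the same order of groups. The libraries of DSS and baseline mice thus differed in sex-linked genes without exception, and sex cannot be told apart from DSS in any comparison of DSS with baseline, while the genotypes compared within a treatment shared the pattern. The 18S ribosomal entry Rn18s-rs5 took 23.0% of counts in baseline DKO replicate 1, 8.46% in replicate 2 and 0.128% to 1.59% elsewhere. In bulk RNA, a change in the number of enteroendocrine cells and a change in RNA per cell cannot be told apart.

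The levels of the members, scaled by edgeR's TMM method and given per kilobase of exon (CPM per kb), ran in the same order in both untreated genotypes: Chgb, Pyy, Gcg, Insl5, Chga, Sct, Tph1, Neurod1, Cck and Pax6. In baseline DKO, the order began with Chgb at 45.2 ± 4.38 CPM per kb and ended with Pax6 at 0.138 ± 0.0602 (SD, n = 3). In baseline WT, Chgb stood at 44.3 ± 9.51 and Pax6 at 0.220 ± 0.0664 CPM per kb (SD, n = 2). The ranges of mean ± SD overlapped between each neighbouring pair from Chgb to Chga in both, and between Neurod1 and Cck. Those of Sct and Tph1 did not overlap in either genotype, at 9.10 ± 3.63 against 3.85 ± 0.0989 CPM per kb in baseline DKO and 8.22 ± 0.490 against 4.63 ± 0.575 in baseline WT.

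After DSS, Gcg led in both genotypes, and the places of Chga and Insl5 differed between them. In DSS DKO the order per length was Gcg (117 ± 48.4 CPM per kb), Chgb (85.5 ± 25.2), Pyy (59.8 ± 17.1), Chga (42.2 ± 10.9), Insl5 (13.7 ± 2.63), Sct (13.2 ± 4.31), Tph1 (10.8 ± 4.38), Cck (2.08 ± 0.963), Neurod1 (1.65 ± 0.102) and Pax6 (0.303 ± 0.0398; SD, n = 3). In DSS WT it was Gcg (61.2 ± 7.31), Chgb (52.4 ± 8.83), Insl5 (44.5 ± 6.64), Pyy (34.3 ± 2.86), Sct (14.0 ± 1.09), Chga (13.2 ± 3.69), Tph1 (6.37 ± 0.688), Neurod1 (1.36 ± 0.0597), Cck (1.34 ± 0.281) and Pax6 (0.191 ± 0.0213; SD, n = 3). The ranges of mean ± SD overlapped between the neighbours Gcg and Chgb, Chgb and Insl5, Sct and Chga, and Neurod1 and Cck in DSS WT. In DSS DKO the same held of each neighbouring pair from Gcg to Chga, of Insl5, Sct and Tph1, and of Cck and Neurod1. Chga thus stood above Insl5 per length in DSS DKO and below it in DSS WT, without overlap of the ranges in either case.

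**Figure D1:**
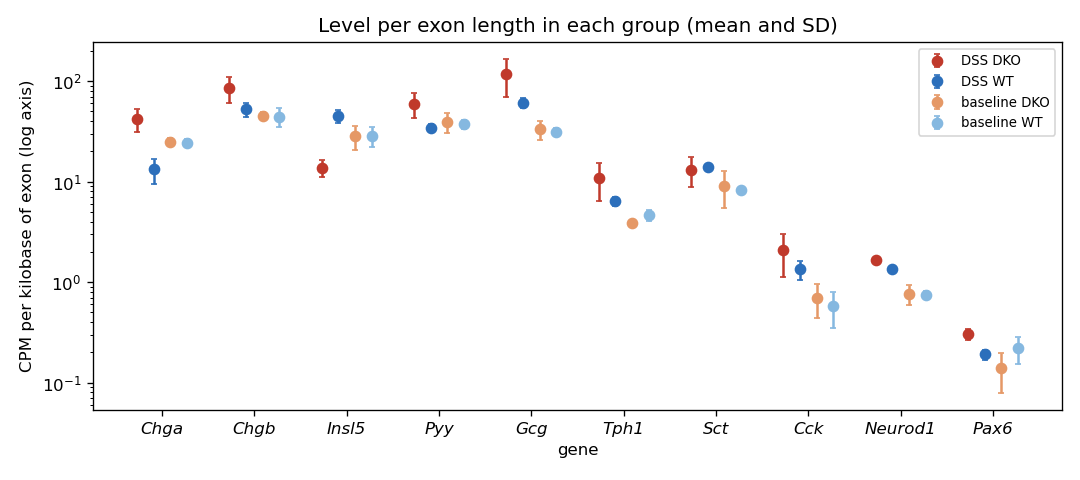
Mean level of each member in CPM per kilobase of exon on a log axis, with bars of 1 SD over libraries; colours mark DSS DKO, DSS WT, baseline DKO and baseline WT. Chga stands at 42.2 in DSS DKO and 13.2 in DSS WT, and Insl5 at 13.7 and 44.5.

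The first question of the design is whether the deletion changes expression in the injured, recovering colon. Among the members, Chga and Pyy were higher and Insl5 was lower in DSS DKO than in DSS WT, and 7 members did not pass the test (edgeR's quasi-likelihood test fitted on all 11 libraries, Benjamini-Hochberg adjusted over 19267 genes, threshold 0.05). Of all genes tested, 5.26% were higher and 5.98% lower in this comparison. The median log2 fold change of the 10 members was 0.69, beside 0.03 for all genes tested. Where groups are said below not to overlap, this describes the printed values and adds no support to the test. The share of all genes that separate in this way is not given.

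Chga encodes chromogranin A, the acidic protein of dense-core granules used as a general enteroendocrine marker. It measured 61.5, 102 and 74.8 CPM in DSS DKO, against 32.9, 20.4 and 21.5 CPM in DSS WT. Every DSS DKO library lay above every DSS WT library, and both baseline groups, at 44.4, 44.2 and 51.4 CPM in DKO and 43.2 and 48.7 CPM in WT, lay between them. The log2 fold change in DSS DKO over DSS WT was 1.67 ± 0.21 (SE), or 3.19-fold, with adjusted p = 0.00106 in edgeR's test. The call was kept in all 11 fits that left out 1 library, where the adjusted p reached at most 0.0102.

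Insl5 encodes insulin-like peptide 5, a peptide of colonic and rectal L cells that acts on the receptor Rxfp4. It moved the other way, at 11.7, 10.2 and 7.89 CPM in DSS DKO and 31.9, 37.2 and 27.6 CPM in DSS WT. The groups did not overlap, and the baseline libraries, at 19.9, 15.4 and 26.5 CPM in DKO and 23.8 and 17.3 CPM in WT, again lay between them. The log2 fold change was -1.70 ± 0.22 (SE), which is 3.25-fold lower, with adjusted p = 0.00126 in edgeR's test and at most 0.0116 in the 11 fits without 1 library.

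Pyy encodes peptide YY, which L cells release with the Gcg peptides and which slows gut transit. Its levels were 25.1, 43.2 and 44.0 CPM in DSS DKO and 20.02, 23.4 and 20.8 CPM in DSS WT, so the groups did not overlap but DSS DKO replicate 1 lay close to DSS WT. The log2 fold change was 0.80 ± 0.22 (SE; adjusted p = 0.0334, edgeR). This call was lost in 5 of the 11 fits without 1 library: adjusted p was 0.141 and 0.0812 without DSS DKO replicates 2 and 3, and 0.0753, 0.0845 and 0.117 without DSS WT replicates 1, 2 and 3. It was also lost when only the DSS libraries were fitted (adjusted p = 0.0752).

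Gcg, which encodes proglucagon, Chgb, which encodes the second granin, and Tph1, the rate-limiting enzyme of gut serotonin synthesis, had positive fold changes that fell short of the threshold. Gcg was at 76.2, 125 and 181 CPM in DSS DKO and 57.4, 71.2 and 71.2 CPM in DSS WT, without overlap (log2 fold change 0.94 ± 0.27, adjusted p = 0.0504, edgeR). Chgb was at 159, 294 and 250 CPM in DSS DKO and 116, 163 and 152 CPM in DSS WT (0.71 ± 0.21, adjusted p = 0.0561). Tph1 was at 29.3, 54.2 and 70.7 CPM in DSS DKO and 26.6, 31.8 and 32.6 CPM in DSS WT (0.76 ± 0.25, adjusted p = 0.0705). For Chgb and Tph1, DSS DKO replicate 1 fell among the DSS WT libraries, and it was also the lowest DSS DKO library for Chga, Pyy and Gcg. Without it, all of Gcg (1.20, adjusted p = 0.00203), Chgb (0.92, adjusted p = 0.00368) and Tph1 (1.04, adjusted p = 0.00075) passed. These gains are not read as particular to the members, since calls over all genes also moved with the library left out. Calls over all genes ran from 691 to 3064 across the 11 fits without 1 library. Across those fits the estimates ran from 0.59 to 1.20 for Gcg, 0.51 to 0.92 for Chgb and 0.46 to 1.04 for Tph1. DESeq2 also called these 3 genes, with adjusted p = 0.00886 for Gcg, 0.0258 for Chgb and 0.0325 for Tph1. Of 19 alternatives in all, Gcg passed in 5, and Chgb and Tph1 in 4 each.

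The remaining members were low in CPM, though per kilobase Sct stood above Tph1 in every group, as given above. Sct, the gene of secretin, was at 4.37, 8.45 and 8.25 CPM in DSS DKO and 7.01, 8.13 and 7.27 CPM in DSS WT, with a log2 fold change of -0.09 and a 95% interval from -0.75 to 0.56. Cck, the gene of cholecystokinin, was at 1.63, 1.92 and 3.70 CPM against 1.47, 1.92 and 1.28 CPM in DSS WT (0.63, interval -0.20 to 1.46). Neither was called, and the intervals leave room for changes in both directions. Neurod1, the transcription factor of early hormone-cell differentiation, was at 4.70, 4.19 and 4.65 CPM in DSS DKO and 3.76, 3.52 and 3.83 CPM in DSS WT (0.28, interval -0.15 to 0.72). Pax6 was at 1.89, 1.98 and 2.40 CPM in DSS DKO and 1.23, 1.23 and 1.49 CPM in DSS WT (0.67, interval -0.03 to 1.36). Both factors were higher in every DSS DKO library than in any DSS WT library, yet adjusted p was 0.397 for Neurod1 and 0.208 for Pax6 in edgeR's test.

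**Figure D2:**
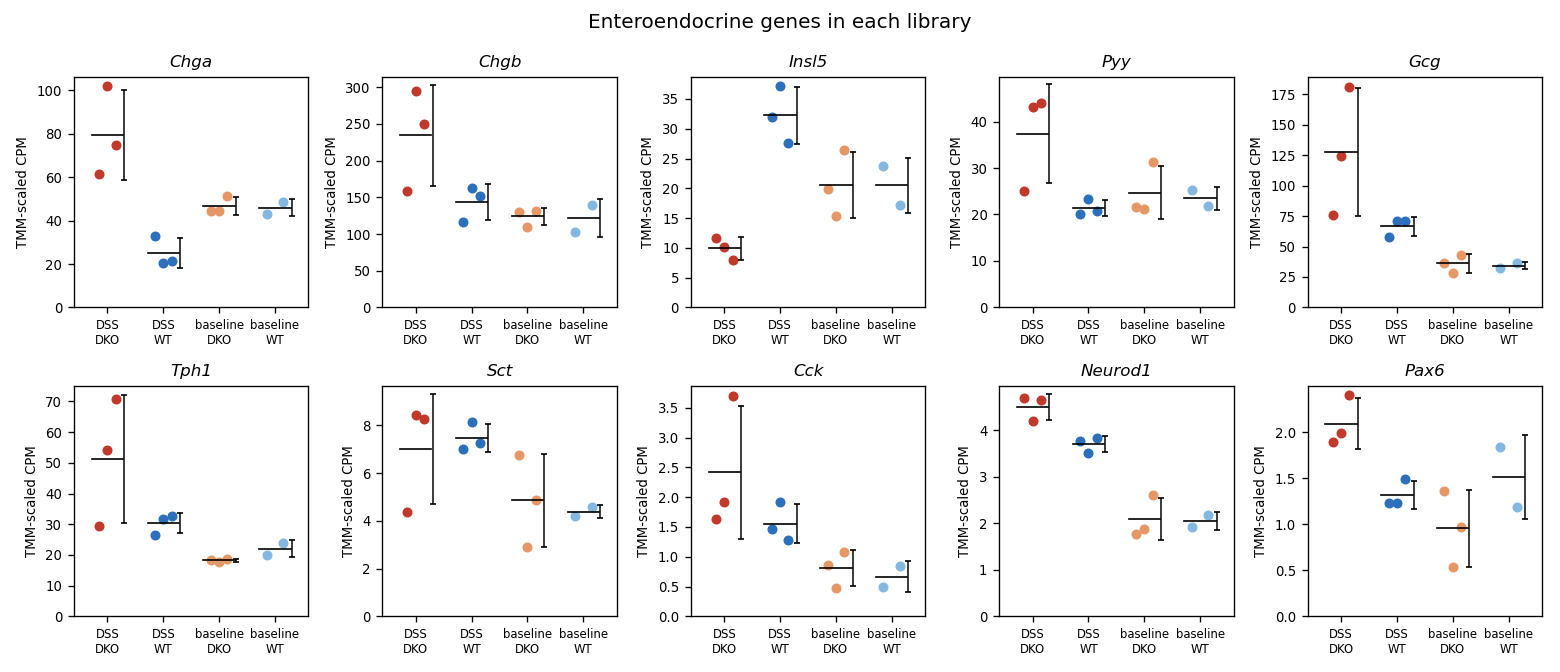
TMM-scaled CPM of each member, 1 point per library, with the group mean (line) and SD (bar) for DSS DKO, DSS WT, baseline DKO and baseline WT; every axis starts at 0. Chga separates upwards (61.5 to 102 in DSS DKO, 20.4 to 32.9 in DSS WT) and Insl5 downwards (7.89 to 11.7 and 27.6 to 37.2).

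At baseline, none of the 10 members was called between DKO and WT, where 5 of 19267 genes (0.0260%) were called in either direction by edgeR, 15 by DESeq2, and 751 had an unadjusted p under 0.05. None of the members had an unadjusted p under 0.05, and DESeq2 called none of them. The median log2 fold change of the members was 0.03, beside 0.01 for all genes. The estimate for Chga was 0.02 with a 95% interval from -0.48 to 0.52, and that for Insl5 was 0.00 with an interval from -0.53 to 0.54. Pax6 had the estimate furthest from 0 among the members, at 1.36, 0.53 and 0.97 CPM in baseline DKO and 1.84 and 1.19 CPM in baseline WT (log2 fold change -0.68, interval -1.47 to 0.12). Tph1 was at 18.5, 17.7 and 18.6 CPM in baseline DKO and 20.1 and 24.0 CPM in baseline WT, without overlap, and was not called (-0.27, interval -0.87 to 0.33). With 2 baseline WT libraries the intervals are wide, as for Gcg (-0.58 to 0.75), Sct (-0.60 to 0.89) and Cck (-0.72 to 1.31).

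Whether the genotype difference itself differed between DSS and baseline was tested by the interaction, for which 1.57% of all genes were called in either direction. Chga (1.65 ± 0.31 on the log2 scale, adjusted p = 0.0268, edgeR) and Insl5 (-1.70 ± 0.33, adjusted p = 0.0297) were the 2 members called. The direction held in all fits that left out 1 library, with estimates of 1.43 to 1.91 for Chga and -1.95 to -1.48 for Insl5, but the calls did not. Adjusted p for Chga was 0.0614 to 0.0986 in 8 of 11 such fits, those without any 1 of the 5 baseline libraries, DSS DKO replicate 2, or DSS WT replicate 2 or 3. For Insl5 it was 0.0611 to 0.110 in 7 of 11, the same libraries except baseline DKO replicate 2. For Pyy (0.73, adjusted p = 0.241), Tph1 (1.03, adjusted p = 0.164) and Pax6 (1.34, adjusted p = 0.167) a difference between the treatments was not shown. Without DSS DKO replicate 1, Gcg (1.12, adjusted p = 0.0344), Chgb (0.90, adjusted p = 0.0432) and Tph1 (1.31, adjusted p = 0.00417) were among the members added by the interaction test. Over the 11 such fits the estimates ran from 0.51 to 1.12 for Gcg, 0.43 to 0.90 for Chgb and 0.73 to 1.31 for Tph1. Of 18 alternatives in all, Gcg and Tph1 passed in 2 each and Chgb in 1. Sex-linked genes differ between the treatments, so the interaction carries that limit too.

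The second axis of the design is DSS against baseline within each genotype. In DKO mice, 7 members were higher after DSS than at baseline, where 12.6% of all genes were higher, and 1 member, Insl5, was lower, where 11% were lower. In WT mice, 2 members were higher, where 16.9% of all genes were higher, and 1, Chga, was lower, where 16.5% were lower. The median log2 fold change of the members was 1.01 in DKO and 0.56 in WT, beside 0.01 and -0.01 for all genes. These comparisons share their DSS libraries with the genotype comparison above, so their values are set side by side and not counted as separate evidence.

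Gcg was higher after DSS in both genotypes. In DKO it was at 76.2, 125 and 181 CPM after DSS and 36.9, 28.2 and 43.4 CPM at baseline (log2 fold change 1.82 ± 0.28, adjusted p = 0.00158, edgeR). In WT it was at 57.4, 71.2 and 71.2 CPM after DSS and 32.0 and 36.1 CPM at baseline (0.97 ± 0.31, adjusted p = 0.0356). The DSS libraries lay above the baseline libraries in both genotypes. Neurod1 was likewise higher after DSS, by 1.11 ± 0.21 in DKO (adjusted p = 0.00313) and by 0.85 ± 0.23 in WT (adjusted p = 0.0162), and its baseline levels were 1.76, 1.89 and 2.60 CPM in DKO and 1.92 and 2.19 CPM in WT. Part of the Neurod1 exons (154 bases) overlaps the antisense gene Gm26755, and reads of the pair cannot be told apart since the strand setting is not given in the sources used here.

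Chga and Insl5 took opposite directions in the 2 genotypes. Chga was 1.70-fold higher after DSS than at baseline in DKO (log2 fold change 0.77 ± 0.21, adjusted p = 0.0205, edgeR) and 1.85-fold lower in WT (-0.88 ± 0.23, adjusted p = 0.0125). Insl5 was 2.07-fold lower after DSS in DKO (-1.05 ± 0.22, adjusted p = 0.00602), and in WT its estimate was 0.65 ± 0.25 and fell short of the threshold (adjusted p = 0.0617). For both genes the DSS libraries of each genotype lay wholly on 1 side of its baseline libraries. The difference between these pairs of effects is the interaction given above.

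Tph1, Cck, Chgb and Pax6 were also called in DKO. Tph1 was at 29.3, 54.2 and 70.7 CPM in DSS DKO against 18.5, 17.7 and 18.6 CPM in baseline DKO (1.49 ± 0.25, adjusted p = 0.00211, edgeR). In WT it was at 26.6, 31.8 and 32.6 CPM after DSS against 20.1 and 24.0 CPM at baseline, which was not called (0.46 ± 0.28, adjusted p = 0.219). Cck was at 0.87, 0.48 and 1.09 CPM in baseline DKO and 0.48 and 0.85 CPM in baseline WT, and its log2 fold change after DSS was 1.56 ± 0.40 in DKO (adjusted p = 0.0159) and 1.22 ± 0.46 in WT (adjusted p = 0.0596). Its lowest library held 20 counts, so Cck rests on few reads. Chgb was at 130, 110 and 132 CPM in baseline DKO and 103 and 140 CPM in baseline WT, and its log2 fold change after DSS was 0.92 ± 0.21 in DKO (adjusted p = 0.0110) and 0.24 ± 0.24 in WT (adjusted p = 0.462). That of Pax6 was 1.14 ± 0.33 in DKO (adjusted p = 0.0272) and -0.20 ± 0.36 in WT (adjusted p = 0.695).

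Pyy and Sct were called in neither genotype. Pyy was at 21.6, 21.2 and 31.2 CPM in baseline DKO and 25.2 and 21.8 CPM in baseline WT, with log2 fold changes after DSS of 0.60 (interval 0.13 to 1.07) in DKO and -0.13 (interval -0.65 to 0.39) in WT. Sct was at 6.78, 2.91 and 4.89 CPM in baseline DKO and 4.20 and 4.57 CPM in baseline WT, with log2 fold changes of 0.53 (interval -0.13 to 1.20) and 0.77 (interval 0.01 to 1.52).

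The calls of DSS against baseline rested on single libraries in several places. In WT, leaving out either baseline WT library ended all 3 calls: adjusted p was 0.0521 and 0.0844 for Chga, 0.196 and 0.109 for Gcg, and 0.126 and 0.0528 for Neurod1 without baseline WT replicates 1 and 2. Leaving out DSS WT replicate 3 also ended all 3 (0.0561 for Chga, 0.0882 for Gcg and 0.0508 for Neurod1), and leaving out DSS WT replicate 2 ended Chga (0.0541) and Gcg (0.0874). The Gcg call was further lost without baseline DKO replicate 1 (0.0519) or DSS DKO replicate 2 (0.0503). In DKO, Gcg, Tph1, Neurod1 and Insl5 kept their calls in all 11 fits without 1 library. Leaving out baseline DKO replicate 2 ended the calls of Chga (0.0787), Chgb (0.0525), Cck (0.0687) and Pax6 (0.0925). Chga was also lost without baseline DKO replicate 1 (0.0708) or DSS DKO replicate 2 (0.0898), and Cck without DSS DKO replicate 3 (0.0615). Pax6 was lost without baseline DKO replicate 3 (0.0617) or DSS DKO replicate 2 (0.0596) or 3 (0.0718). With baseline DKO replicate 3 as the single baseline DKO library, which takes out both libraries rich in Rn18s-rs5, 1 member was called in place of 8, Insl5.

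**Figure D3:**
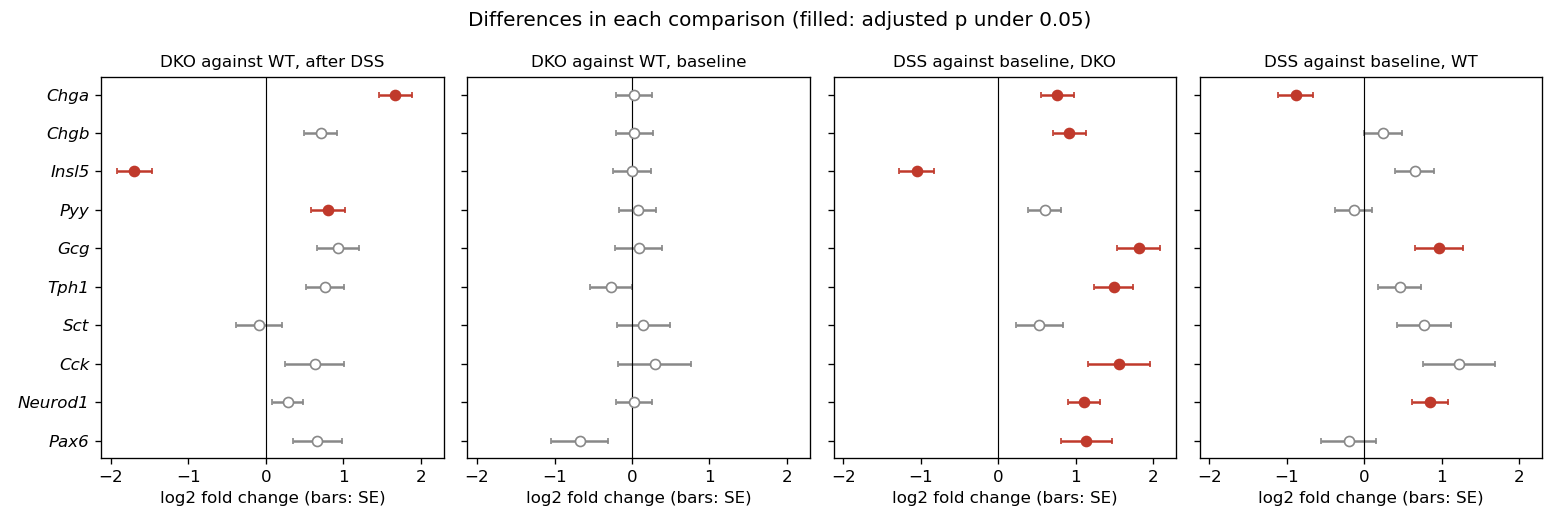
Log2 fold change of each member (points) with its SE (bars) in DKO against WT after DSS and at baseline, and in DSS against baseline in DKO and WT; filled points have an adjusted p under 0.05 in edgeR's test. Chga and Insl5 point in opposite directions in the first panel (1.67 and -1.70), and all 10 points of the baseline panel are open.

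The count of 1 member over that of another within a library does not depend on the scaling of libraries. These ratios are a description, with no test. The ratio of Insl5 to Gcg counts was 0.153, 0.0818 and 0.0435 in DSS DKO, against 0.556, 0.522 and 0.388 in DSS WT. In the baseline libraries it was 0.540, 0.546 and 0.610 in DKO and 0.743 and 0.478 in WT, so DSS DKO alone stood apart. The ratio of Insl5 to Pyy was 0.466, 0.236 and 0.179 in DSS DKO and 1.59, 1.59 and 1.33 in DSS WT, with baseline DKO (0.726 to 0.921) and baseline WT (0.793 to 0.944) between them. The L cell peptide genes therefore kept no constant proportion.

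The ratio of Gcg to Pyy separated DSS from baseline libraries and overlapped between the genotypes. It was 3.04, 2.89 and 4.12 in DSS DKO and 2.87, 3.04 and 3.42 in DSS WT, against 1.33 to 1.71 in baseline DKO and 1.27 to 1.66 in baseline WT. The granins also parted: Chga over Chgb was 0.387, 0.346 and 0.299 in DSS DKO and 0.283, 0.125 and 0.141 in DSS WT, with baseline DKO at 0.343 to 0.401 and baseline WT at 0.348 to 0.419. The low ratio was thus that of DSS WT, while DSS DKO overlapped baseline DKO. Tph1 over Chga was 0.477, 0.532 and 0.945 in DSS DKO and 0.807, 1.56 and 1.52 in DSS WT, against 0.362 to 0.417 in baseline DKO and 0.465 to 0.492 in baseline WT.

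**Figure D4:**
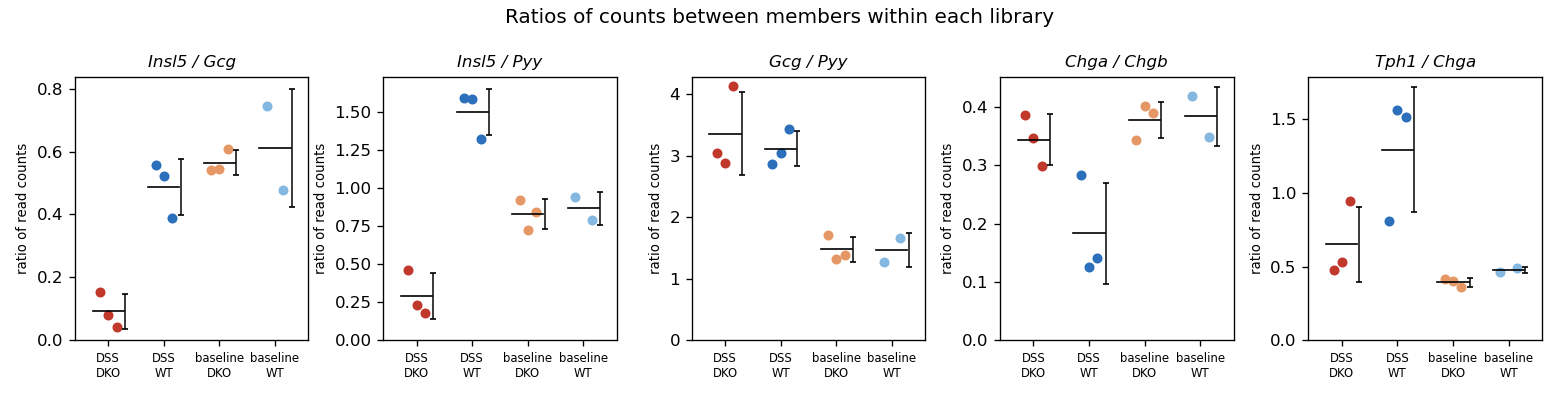
Ratio of the counts of 1 member to those of another within each library (points), with the group mean (line) and SD (bar), for DSS DKO, DSS WT, baseline DKO and baseline WT. Insl5 over Gcg stands at 0.0435 to 0.153 in DSS DKO and 0.388 to 0.743 in all other libraries.

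Across the 11 libraries, the log2 profiles of members (each centred on its mean) differed least between Chgb and Pyy, with a root mean square difference of 0.26, and between Gcg and Tph1, with 0.27. They differed most between Chga and Insl5 and between Insl5 and Gcg, with 1.29 each. By the same measure over 11917 genes whose mean log2 CPM was 0 or above, the genes with the profiles closest to Chga were Nop53 (0.19), Acot2 (0.20) and Klhdc7a (0.22), and those closest to Insl5 were Gad2 (0.23), Cox7a1 (0.25) and Spink1 (0.25). Closest to Gcg were Rassf4 (0.15), Nr1h4 (0.16) and Fgl2 (0.16), and closest to Tph1 were Slc22a5 (0.12), Prkag2 (0.16) and Nceh1 (0.17). Closest to Chgb were Arl14 (0.13), Gramd3 (0.14) and Hsdl2 (0.14), and closest to Pyy were Eci2 (0.15), Gabarapl1 (0.15) and Pipox (0.16). For Sct they were Zfp759 (0.17), Clec2d (0.19) and Gorab (0.19), for Neurod1 Mrps34 (0.14), Bmi1 (0.15) and Arhgap9 (0.15), for Cck Fam162a (0.21), Adh5 (0.23) and Fgl2 (0.27), and for Pax6 Nbea (0.25), Kif27 (0.26) and Ddx43 (0.30). For none of the members was another member among these 3 closest genes. With each member ranked against 11917 genes, this says little on how alike the members are. The values describe likeness over libraries that fall into 4 groups.

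The other genes of the hormone pathway were taken from lists chosen with earlier results of these data known, and are given as counts beside the shares of all genes above. Of 13 other gut hormone genes, 6 were tested and 1, Iapp, the gene of islet amyloid polypeptide, was called after DSS between the genotypes. It was at 0.777, 1.30 and 1.63 CPM in DSS DKO and 0.157, 0.186 and 0.330 CPM in DSS WT (log2 fold change 2.44 ± 0.52, adjusted p = 0.0127, edgeR), and the call was lost in 2 of 11 fits without 1 library, those without DSS DKO replicate 2 or DSS WT replicate 2 (adjusted p at most 0.0601). The DSS WT values rest on 8 to 18 counts. In DKO, Nts (neurotensin, 2.08 ± 0.45, adjusted p = 0.00970), Sst (somatostatin, 1.24 ± 0.28, adjusted p = 0.00888) and Tac1 (the substance P precursor, 2.29 ± 0.45, adjusted p = 0.00537) were higher after DSS than at baseline, each in all 11 fits without 1 library. In WT, Tac1 alone was called of the 6 (1.60 ± 0.51, adjusted p = 0.0338), and that call was lost in 4 of 11 fits without 1 library (adjusted p at most 0.181), those without baseline WT replicate 1 or 2 or DSS WT replicate 2 or 3.

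Of 20 genes of granules and prohormone processing, 19 were tested, and 2 were higher and none lower in DSS DKO than in DSS WT, with a median log2 fold change of 0.48. Cpe, the carboxypeptidase that trims prohormones, was at 27.1, 34.0 and 27.4 CPM in DSS DKO and 15.3, 17.5 and 16.2 CPM in DSS WT, without overlap (0.86 ± 0.15, adjusted p = 0.00518, edgeR). It kept its call in all 11 fits without 1 library. Ptprn2, a membrane protein of dense-core granules, was at 33.8, 45.8 and 54.4 CPM in DSS DKO and 28.6, 28.3 and 30.0 CPM in DSS WT (0.62 ± 0.15, adjusted p = 0.0226), a call lost in 4 of 11 such fits (adjusted p at most 0.0928), those without DSS DKO replicate 2 or 3 or DSS WT replicate 2 or 3. Against baseline, 7 of the 19 were higher and 1 lower after DSS in DKO, and 3 were higher and 4 lower in WT. Cpe (1.37 ± 0.15 in DKO and 0.91 ± 0.17 in WT), the granule GTPase gene Rab3c (1.51 ± 0.31 and 1.57 ± 0.35) and Syp, which encodes the vesicle protein synaptophysin (1.16 ± 0.27 and 1.07 ± 0.31), were higher in both genotypes, and Rab3b was lower in both (-2.38 ± 0.46 and -1.50 ± 0.50). Syt13 (1.36 ± 0.30) and Scg5 (1.29 ± 0.33) were called in DKO, and Pam (-0.42 ± 0.12), the amidating enzyme of peptide hormones, and Pcsk1n (-1.67 ± 0.56) were lower in WT.

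None of the 17 other lineage transcription factors tested was called between the genotypes after DSS, where 12 had positive and 5 negative estimates and the median was 0.36. Against baseline, 3 were higher and 1 lower in DKO, and 2 were higher and 4 lower in WT. Rfx6, a factor of hormone gene expression, was at 2.42, 4.21 and 3.22 CPM in DSS DKO and 1.33, 1.26 and 1.98 CPM in baseline DKO (log2 fold change 1.10 ± 0.28, adjusted p = 0.0144, edgeR), and was at 2.16, 3.02 and 2.88 CPM in DSS WT and 1.35 and 1.42 CPM in baseline WT (0.95 ± 0.31, adjusted p = 0.0366). Insm1, a factor of early endocrine progenitors, was lower in WT after DSS, at 0.333, 0.112 and 0.147 CPM against 1.09 and 1.49 CPM at baseline (-2.70 ± 0.49, adjusted p = 0.00210). Lmx1a, a factor of enterochromaffin cells, was higher after DSS in both DKO (1.24 ± 0.30) and WT (1.14 ± 0.34). Etv1 (1.84 ± 0.30) was higher and Foxa2 (-1.54 ± 0.49) lower in DKO, and Foxa1 (-1.50 ± 0.46) and Sox4 (-1.47 ± 0.46) were lower in WT. Neurod2 was also called lower in WT, with 2, 0 and 0 counts in the DSS WT libraries and 12 and 15 counts in the baseline WT libraries, and no fold is given against values this near 0.

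Of the 7 other genes of serotonin handling, 1 was higher and 1 lower in DSS DKO than in DSS WT. Slc18a1, which loads serotonin into granules, was at 6.31, 9.74 and 10.4 CPM in DSS DKO and 3.57, 5.57 and 4.0 CPM in DSS WT (1.01 ± 0.24, adjusted p = 0.0213, edgeR). Gch1, which makes the cofactor of tryptophan hydroxylase, was at 24.0, 18.1 and 20.3 CPM in DSS DKO and 31.0, 31.6 and 27.9 CPM in DSS WT (-0.54 ± 0.14, adjusted p = 0.0312). Neither pair of groups overlapped. Both calls were lost without DSS DKO replicate 2 or 3 or DSS WT replicate 1 or 3, and that of Gch1 also without DSS WT replicate 2 (adjusted p at most 0.0911 for Slc18a1 and 0.139 for Gch1). Against baseline, Slc18a1 (1.00 ± 0.24) was higher and Ddc (-0.36 ± 0.10), the decarboxylase that completes serotonin synthesis, lower after DSS in DKO, and Gch1 (0.64 ± 0.16) was higher and the serotonin transporter gene Slc6a4 (-1.15 ± 0.31) and Pts (-0.53 ± 0.17) lower in WT.

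Of 13 genes of nutrient and irritant sensing, 10 were tested, and 3 were higher and none lower in DSS DKO than in DSS WT. Abcc8, the sulfonylurea receptor of the ATP-sensitive potassium channel, was at 7.51, 8.95 and 6.01 CPM in DSS DKO and 3.55, 1.58 and 1.91 CPM in DSS WT (1.68 ± 0.28, adjusted p = 0.00415, edgeR), and its baseline levels were 5.33, 5.84 and 6.02 CPM in DKO and 7.15 and 5.98 CPM in WT. The groups after DSS did not overlap, and the low group was DSS WT, as for Chga. Its interaction was 1.87 ± 0.41 (adjusted p = 0.0440), a call lost in 8 of 11 fits without 1 library, those that ended the interaction call of Chga (adjusted p at most 0.176). Kcnj11, the pore of the same channel, was at 0.629, 1.80 and 0.635 CPM in DSS DKO and 0.392, 0.373 and 0.202 CPM in DSS WT (1.66 ± 0.48, adjusted p = 0.0447), and kept its call in 2 of 11 fits, those without DSS DKO replicate 1 or 3 (adjusted p at most 0.233 in the others). Without DSS DKO replicate 2, the library with the highest Kcnj11, its log2 fold change was 0.97 (adjusted p = 0.233). Trpa1, an irritant-gated channel of enterochromaffin cells, had 12, 109 and 136 counts in the DSS DKO libraries and 2, 0 and 0 counts in the DSS WT libraries (adjusted p = 0.00756). The baseline libraries held 0 to 2 counts of Trpa1, so it passed the filter (minimum count 10) only through DSS DKO, the group where it was high. Its calls, which enter the counts of this list, are therefore no support. No fold is given against values this near 0. Ffar4, a receptor for long-chain fatty acids, was higher after DSS in both DKO (1.28 ± 0.22, adjusted p = 0.00182) and WT (1.44 ± 0.25, adjusted p = 0.00170). Olfr558 was higher in both (1.41 ± 0.44 in DKO and 1.59 ± 0.52 in WT), and Trpa1 in DKO with the limit just given. In WT, Gpr119 (1.29 ± 0.46) was also higher after DSS, and Abcc8 (-1.49 ± 0.30), the short-chain fatty acid receptor gene Ffar3 (-1.97 ± 0.53) and Olfr78 (-1.01 ± 0.31) were lower.

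Of 15 receptors for the hormones, 8 were tested, and 1 was higher and 2 lower in DSS DKO than in DSS WT. Sstr1, a somatostatin receptor, was at 53.7, 65.7 and 89.7 CPM in DSS DKO and 28.8, 26.4 and 23.0 CPM in DSS WT (1.42 ± 0.18, adjusted p = 0.000988, edgeR), in all 11 fits without 1 library. Npy1r, a receptor for peptide YY and neuropeptide Y, was at 3.48, 2.09 and 2.04 CPM in DSS DKO and 7.01, 6.08 and 4.83 CPM in DSS WT (-1.23 ± 0.25, adjusted p = 0.00985). Htr4, a serotonin receptor, was at 21.4, 14.1 and 12.1 CPM in DSS DKO and 29.4, 32.4 and 29.7 CPM in DSS WT (-0.94 ± 0.20, adjusted p = 0.0111). The groups did not overlap for any of these 3 genes. Leaving out DSS DKO replicate 2 ended the calls of Npy1r (adjusted p = 0.0555) and Htr4 (adjusted p = 0.0635). Against baseline, Sstr1 (0.99 ± 0.18) was higher and Npy1r (-1.46 ± 0.25) and Htr4 (-0.79 ± 0.20) were lower after DSS in DKO, and Glp2r (-2.48 ± 0.55) and Npy2r (-1.44 ± 0.46) were lower in WT. Rxfp4, the receptor of insulin-like peptide 5, had 0 to 11 counts per library and was not tested.

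Of the list genes named against baseline in WT, Cpe, Rab3c, Insm1, Ffar4, Abcc8 and Glp2r kept their calls in all 11 fits without 1 library. The calls of the other genes so named in WT were each lost without baseline WT replicate 1 or 2, or without either, where adjusted p was at most 0.0944 for Pam, 0.106 for Syp, 0.143 for Rab3b, 0.147 for Pcsk1n, 0.173 for Rfx6, 0.119 for Lmx1a, 0.149 for Foxa1, 0.172 for Sox4 and 0.0923 for Neurod2 over all such fits. For the rest of those WT calls it was at most 0.128 for Gch1, 0.0939 for Slc6a4, 0.269 for Pts, 0.225 for Olfr558, 0.185 for Gpr119, 0.0723 for Ffar3, 0.194 for Olfr78 and 0.139 for Npy2r. In DKO, the calls of Scg5 (adjusted p at most 0.0676), Ddc (0.0663), Htr4 (0.0631), Rfx6 (0.0649), Foxa2 (0.135) and Olfr558 (0.122) were each lost without DSS DKO replicate 2 and without baseline DKO replicate 2, among other fits for the last 3, and that of Slc18a1 (0.0507) without baseline DKO replicate 1 or 2. The other genes named in DKO kept their calls in all 11 fits. The fold of 3 of these genes against baseline moved with replicate 1 of its DSS group. Without that library the log2 fold change was larger in size for Insm1 in WT (-3.31) and Foxa2 in DKO (-2.25), and smaller for Tac1 in DKO (1.52).

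Several markers moved with these results. Hormone genes differ along the colon, with Insl5 known for its distal position, and posterior Hox genes mark distal identity. The 9 posterior Hox genes summed to 120, 47.8 and 17.4 CPM in DSS DKO replicates 1, 2 and 3, against 175, 135 and 93.3 CPM in DSS WT replicates 1, 2 and 3. They summed to 173, 217 and 209 CPM in baseline DKO and 214 and 199 CPM in baseline WT. None of the 8 tested was called between the genotypes after DSS (median log2 fold change -1.19, 6 of 8 negative), while 4 were lower after DSS in DKO and 2 in WT. Hoxb13, a gene of the distal colon, ranged from 11.8 to 80.5 CPM in DSS DKO and 69.8 to 126 CPM in DSS WT. None of the 9 was at 0 throughout a group. Within DSS DKO, the library with the lowest Hox sum had the highest Gcg (181 CPM), Tph1 (70.7 CPM), Cck (3.70 CPM) and Nts (35.0 CPM) and the lowest Insl5 (7.89 CPM), and the library with the highest sum had the lowest Gcg (76.2 CPM) and the highest Insl5 (11.7 CPM). Pyy (44.0 CPM) and Pax6 (2.40 CPM) were also highest in replicate 3. Chga (102 CPM), Chgb (294 CPM) and Sct (8.45 CPM) were instead highest in replicate 2, and Neurod1 (4.70 CPM) in replicate 1. DSS DKO replicate 1, a single library, overlapped DSS WT in Hox sum. Its Insl5 was at 11.7 CPM against 27.6 to 37.2 CPM in DSS WT. Its Chga was at 61.5 against 20.4 to 32.9 CPM, and its Gcg at 76.2 against 57.4 to 71.2 CPM. Within DSS WT, Insl5 was at 31.9, 37.2 and 27.6 CPM in replicates 1, 2 and 3. The part of colon position in the results was not tested.

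**Figure D5:**
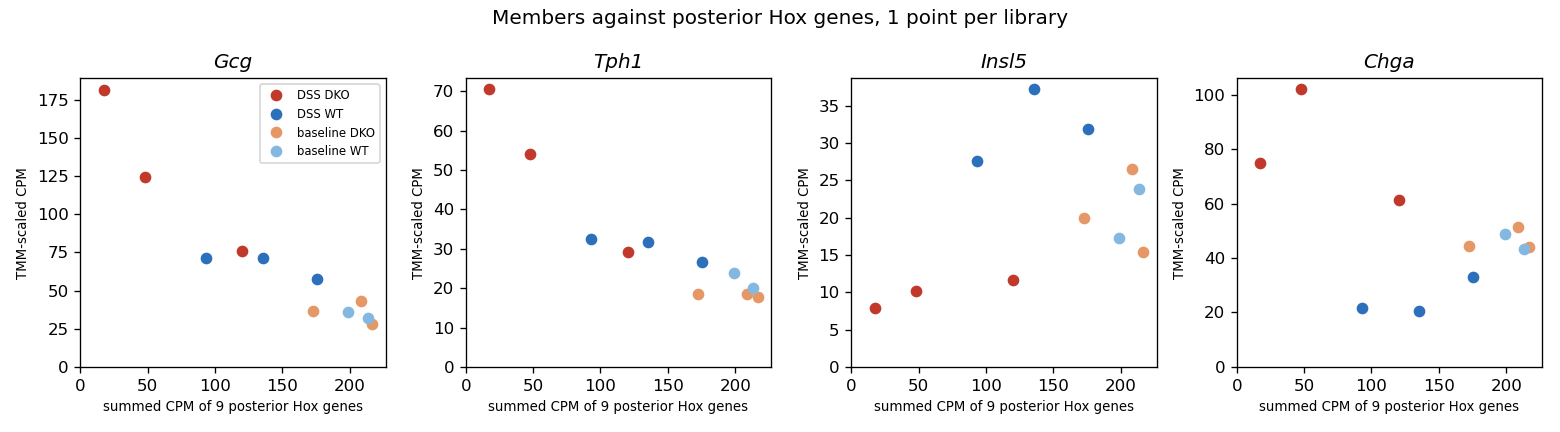
CPM of Gcg, Tph1, Insl5 and Chga (vertical) against the summed CPM of 9 posterior Hox genes (horizontal), 1 point per library, coloured by DSS DKO, DSS WT, baseline DKO and baseline WT. Within DSS DKO, the library with the lowest Hox sum (17.4) has the highest Gcg (181) and the lowest Insl5 (7.89), while Insl5 in all 3 DSS DKO libraries lies below every other library.

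Enteric nerve cells also express granins and neuropeptides. The 11 neuron markers summed to 5.62 to 9.97 CPM in DSS DKO, 3.97 to 4.31 in DSS WT, 2.93 to 4.12 in baseline DKO and 4.21 to 6.24 in baseline WT, and Ret made up 3.92 to 9.05 CPM of the sum in DSS DKO and 2.48 to 3.08 CPM in DSS WT. Ret was the 1 of 7 tested neuron markers called after DSS between the genotypes (1.23 ± 0.33, adjusted p = 0.0339, edgeR), a call lost in 4 of 11 fits without 1 library, those without DSS DKO replicate 2 or any DSS WT replicate (adjusted p at most 0.157). Of those 7 markers, 5 had positive and 2 negative estimates in DSS DKO against DSS WT (median log2 fold change 0.44). The neuron marker Elavl4 was at 0.159 CPM or below in DSS DKO and 0.220 CPM or below in DSS WT. Of the 6 glial markers, Sox10 was at 0 in all DSS libraries, and Erbb3, which epithelium also expresses, gave nearly all of the sum of 294 to 488 CPM in DSS DKO and 228 to 246 CPM in DSS WT (baseline DKO 307 to 372, baseline WT 286 to 371). Erbb3 was the 1 of 4 tested glial markers called, and it was higher in DSS DKO (0.75 ± 0.17, adjusted p = 0.0175), a call lost in 3 of 11 fits without 1 library, those without DSS DKO replicate 2 or DSS WT replicate 2 or 3 (adjusted p at most 0.0755). Of those 4 markers, 3 had positive estimates and 1 a negative estimate (median log2 fold change 0.69). The part of nerve and glial cells in the members' results was not tested.

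Markers of other cells of the preparation also differed between the genotypes after DSS. The 8 T cell markers summed to 29.6 to 59.5 CPM in DSS DKO and 110 to 123 CPM in DSS WT, with 6 of 8 lower (Cd3d, Cd3e, Cd3g, Cd8a, Gzma and Gzmb), and the 7 neutrophil markers summed to 157 to 221 CPM in DSS DKO and 49.7 to 57.1 CPM in DSS WT, with 5 of 7 higher (Ly6g, Mmp8, Retnlg, S100a8 and S100a9). Without DSS DKO replicate 2, all 6 T cell calls and that of S100a9 were lost. Over the 11 fits without 1 library, Gzma kept its call in 10, Cd8a and Gzmb in 8 each, Cd3d in 7, Cd3g in 5 and Cd3e in 1, and S100a9 kept it in 7, being lost also without each DSS WT replicate. The other 4 neutrophil calls held in all 11 fits. At baseline the T cell sums were 21.0 to 32.7 CPM in DKO and 19.7 to 37.5 CPM in WT, and the neutrophil sums 31.0 to 39.8 and 32.3 to 35.6 CPM. The goblet marker sum was 3906 to 4066 CPM in DSS DKO and 6644 to 8244 CPM in DSS WT, against 34634 to 39951 CPM in baseline DKO and 40337 to 40599 CPM in baseline WT. The tuft marker sum was 11.9 to 17.1, 15.4 to 20.5, 57.5 to 67.2 and 57.0 to 69.6 CPM in the same order of groups, and all 8 tuft markers tested of 9 were lower after DSS in both genotypes. Between the genotypes after DSS, 2 of 8 goblet markers (Clca1 and Spink4) and 2 of 8 tuft markers (Pou2f3 and Dclk1) were lower in DKO, of which Clca1 alone kept its call without DSS DKO replicate 2. Of the 8 crypt stem cell markers, 3 were lower in DSS DKO, namely Smoc2 (-1.84 ± 0.18, adjusted p = 0.000344, edgeR), the Wnt target Lgr5 (-1.68 ± 0.28, adjusted p = 0.00435) and Cdca7 (-1.01 ± 0.20, adjusted p = 0.0102), each called in all 11 fits without 1 library. The stem cell sum was 86.3 to 180 CPM in DSS DKO and 210 to 234 CPM in DSS WT, against 208 to 252 CPM in baseline DKO and 257 to 269 CPM in baseline WT. Of the 8 markers of absorptive colonocytes, the sodium-proton exchanger gene Slc9a3 (2.95 ± 0.23, adjusted p = 0.00011), the alkaline phosphatase gene Alpi (1.44 ± 0.18, adjusted p = 0.000928) and Cdhr5 (0.76 ± 0.20, adjusted p = 0.0344) were higher in DSS DKO and the water channel gene Aqp8 (-1.43 ± 0.29, adjusted p = 0.0133) was lower. Slc9a3 and Alpi were called in all 11 fits without 1 library, Aqp8 in 10 and Cdhr5 in 6. Their list summed to 5533 to 7848 CPM in DSS DKO and 7558 to 7886 CPM in DSS WT, against 6740 to 8299 CPM in baseline DKO and 4941 to 7806 CPM in baseline WT. Of the 8 fibroblast and muscle markers, Dcn (2.22 ± 0.47, adjusted p = 0.0181) and Col3a1 (1.45 ± 0.38, adjusted p = 0.0349) were higher in DSS DKO, called in 8 and 5 of 11 such fits, and both calls were lost without DSS DKO replicate 2 and without DSS WT replicate 2 or 3. That list summed to 217 to 358 CPM in DSS DKO and 283 to 333 CPM in DSS WT, against 208 to 522 CPM in baseline DKO and 263 to 323 CPM in baseline WT. None of the 5 tested B and plasma cell markers or of the 7 macrophage markers was called between the genotypes after DSS. No marker of the T cell, neutrophil, goblet, tuft, stem cell, absorptive and fibroblast lists was at 0 throughout a group. The 10 members summed to 375 to 648 CPM in DSS DKO and 299 to 361 CPM in DSS WT, against 243 to 313 CPM in baseline DKO and 256 to 297 CPM in baseline WT, so this sum did not follow the goblet and tuft sums down. Chgb was the largest part of it in every library. The absorptive sum was not lower after DSS in WT either. The sum of the 17 other lineage factors did fall, to 137 to 227 CPM in DSS DKO and 136 to 210 CPM in DSS WT. It was 259 to 306 CPM in baseline DKO and 250 to 285 CPM in baseline WT. The granule and processing list was lower in WT (244 to 258 against 262 to 282 CPM) and overlapped in DKO. The other hormone genes were higher after DSS in both genotypes. The part of the other cells of the preparation in the members' results was not tested.

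The promoters of the members were searched on both strands in RefSeq windows of 300 bases, 250 before and 50 after each start, since Chga and Insl5 parted in direction. The core of the cyclic AMP response element (TGACGT) was found for 3 of 10 members, Chga, Chgb and Pax6, in 4 of 14 windows, where 7.51% of 32851 windows of all genes held it. The E-box CAGNTG was found for 6 members in 7 of 14 windows, against 51.4% of all windows. Insl5 held an E-box and no TGACGT in its windows, and the letters say nothing on whether a factor binds. The 250 bases before the RefSeq start of Chga, at chr12:102554691-102554940 on the plus strand (GRCm38.p6), are shown with both motifs in capitals. This start lies upstream of the GENCODE start given above, chr12:102554969.
Chga: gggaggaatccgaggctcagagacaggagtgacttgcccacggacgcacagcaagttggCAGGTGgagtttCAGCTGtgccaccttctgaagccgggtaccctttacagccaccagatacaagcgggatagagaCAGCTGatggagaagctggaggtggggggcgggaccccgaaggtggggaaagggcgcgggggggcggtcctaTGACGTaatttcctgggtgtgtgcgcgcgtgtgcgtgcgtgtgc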

How the data were processed

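The deposited table holds whole-number read counts per gene for the 11 libraries, as the authors made them, with STAR and the mm10 genome named in the submitters' processing notes. For the counting program, the annotation and the strandedness, the sources used here name none. Libraries were prepared from oligo(dT)-selected messenger RNA, per the labels' protocols. Library totals were 41631951 to 52761900 counts, and intervals cover these libraries only.

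From these counts, genes were filtered with edgeR's filterByExpr (minimum count 10), libraries scaled by TMM, and a robust quasi-likelihood model fitted to the 4 groups in edgeR 4.0.16 (R 4.3.3). P-values were adjusted by Benjamini-Hochberg over 19267 genes, with a threshold of 0.05. Each SE was obtained from the log2 fold change and its F statistic, and 95% intervals use the t quantile of the fit. Likeness used log2 CPM with a prior count of 2. Replicates of a group differed beyond sampling noise, and each was counted once. Alternatives were DESeq2 1.42.0, DESeq2 size factors, no filter, a filter at CPM 1 in 2 libraries, only the groups compared, a replicate block, leaving out Rn18s-rs5, leaving out each library, and 1 baseline DKO library. The tests were checked on simulated data.

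Exon lengths and 3′ UTRs came from GENCODE M21, and promoters and microRNAs from RefSeq (GRCm38.p6). The 10 members and all gene lists were chosen with earlier results of these data known. Named genes are the members, the called genes of each list (up to 6 with the lowest adjusted p), and the 3 genes most like each member among those with annotated symbols. Other numbers were computed with pandas 2.3.3 and numpy 2.4.6, and drawn with matplotlib 3.10.9.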

Additional observations from a re-analysis of the deposited data

Results flagged for a closer look

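Chga and Insl5 had genotype differences that differed between DSS and baseline by the interaction test. For Chga the difference of DKO minus WT was larger after DSS than at baseline by 1.65 ± 0.31 on the log2 scale (SE; adjusted p = 0.0268, edgeR's quasi-likelihood test), with DSS DKO above DSS WT in every library and the baseline groups overlapping. For Insl5 it was -1.70 ± 0.33 (adjusted p = 0.0297), with DSS DKO below DSS WT in every library. Leaving out 1 library ended the call for Chga in 8 of 11 fits and for Insl5 in 7 of 11, with adjusted p at most 0.0986 and 0.110. The libraries after DSS and at baseline also differed in Xist and Ddx3y, and the part of sex cannot be told apart from that of DSS.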

How the results depend on the processing

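The genotype calls of Chga and Insl5 after DSS held in all 19 alternatives, at log2 fold changes of 1.45 to 1.93 and -1.83 to -1.56. Members called, given for DKO against WT after DSS, DSS against baseline in DKO, DSS against baseline in WT, and the interaction, numbered 3, 8, 3 and 2. They moved to 6 (DKO against WT after DSS) with no filter, with DESeq2 and with the replicate block, and to 6 (DSS against baseline in WT) with no filter or with only the libraries compared. The interaction had 4 with no filter. With baseline DKO replicate 3 as the single baseline DKO library, 1 member was called in DSS against baseline in DKO and 1 in the interaction. Leaving out 1 library gave 2 to 6 members, 4 to 9, 0 to 5 and 0 to 6, and 0 for DKO against WT at baseline. Over all genes, called numbers of 2165 for DKO against WT after DSS became 1372 with only the libraries compared. At baseline, 5 genes became 79 with no filter, 15 with DESeq2, 3 with the replicate block and 1 with the single baseline DKO library. The interaction, 302 genes, became 1469 with no filter, 1269 with DESeq2 and 86 with that single library, and DSS against baseline in DKO, 4545 genes, became 957. Without 1 library these ran from 691 to 3064, 1 to 5, 2 to 1498, and 2605 to 5788, and DSS against baseline in WT (6432 genes) from 2775 to 7378. The cause was not tested.

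No called member reversed. Reversals of uncalled estimates at baseline were Insl5 at -0.00226 with DESeq2 size factors, -0.0175 with the CPM filter and -0.00197 with DESeq2, and Pyy at -0.0550, Gcg at -0.0786 and Neurod1 at -0.0576 with the replicate block. With the single baseline DKO library the interaction was -0.0701 for Cck and -0.0543 for Neurod1. Without 1 library, baseline estimates ran from -0.0626 to 0.126 for Chga, -0.175 to 0.280 for Chgb, -0.221 to 0.254 for Insl5, -0.136 to 0.181 for Pyy, -0.0684 to 0.236 for Gcg, -0.165 to 0.407 for Sct, -0.0590 to 0.764 for Cck and -0.169 to 0.141 for Neurod1. Those of Sct after DSS ran from -0.245 to 0.163, of Pax6 in DSS against baseline in WT from -0.463 to 0.146, and the interaction from -0.497 to 0.0783 for Sct and -0.134 to 0.689 for Cck. The labels do not say that replicate numbers pair the libraries, and the values did not settle it. The 15 same-numbered pairs had correlations of -0.07 to 0.30, 4 of them over 0.1. The 30 different-numbered pairs had -0.30 to 0.20, 3 of them over 0.1. Between DSS DKO and DSS WT, replicates 1, 2 and 3 correlated at 0.30, 0.02 and 0.20, and different-numbered pairs at -0.30 to 0.16. With the replicate block, 6, 9, 3 and 2 members were called, in the order above, the 3 added after DSS being Gcg (adjusted p = 0.0220), Chgb (0.0255) and Tph1 (0.0445). Where leaving out a library left 1 in a group, that library was taken to vary like the others. Cck and Pax6, at 20 and 22 counts in their lowest libraries, are limited by depth.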
